A study of Mus musculus with 16 samples.

Results

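Retinoic acid synthesis, breakdown and response were followed through 9 genes in mouse embryo heads: the synthesis enzyme genes Aldh1a1, Aldh1a2 and Aldh1a3, the breakdown enzyme genes Cyp26a1, Cyp26b1 and Cyp26c1, the receptor gene Rarb, and the binding protein genes Crabp1 and Crabp2. They were chosen by name, with earlier results of these data known. They were found by gene symbol in the platform annotation, where 8 of the 9 had a probe set, 10 probe sets in all, among 18194 genes and 45101 probe sets. No probe set of the table used here was named for Cyp26c1, so it is not analysed here. Aldh1a3 had 3 probe sets and each of the other 7 genes had 1. Each gene is described by its brightest probe set, the one with the highest mean over the 16 arrays, and the other probe sets of Aldh1a3 are given beside it.

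Total RNA of embryo heads was hybridised to 1-colour short oligonucleotide arrays. Stage E9.5 had 6 samples, E11.5 had 4 and E13.5 had 6, which the submitters call biological replicates. No strain, sex, treatment or genetic change is given in the labels for any group. The E9.5 and E11.5 RNA was labelled with an in vitro transcription kit of Affymetrix and the E13.5 RNA with the MessageAmp II kit of Ambion, so stage and labelling kit cannot be told apart in either comparison with E13.5. The titles name heads, the series title names the brain, and how much surrounding tissue was taken is not stated.

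Retinoic acid is made from vitamin A in a pair of oxidations, of which the last and irreversible step is carried out by the retinaldehyde dehydrogenases that the Aldh1a genes encode. Cytochrome P450 enzymes of the CYP26 family oxidise it to inactive forms, and where synthesis and breakdown lie side by side they shape the retinoic acid distribution that patterns the hindbrain, the eye, the olfactory region and the face. The acid acts through nuclear receptors of the RAR family paired with RXR partners, which sit on direct repeats of a short sequence, and Rarb and Cyp26a1 are textbook direct targets. CRABP proteins bind retinoic acid in the cytoplasm, and CRABP2 can hand it to the receptors.

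The promoters of Rarb and Cyp26a1 are shown because, of the members, these 2 held such a repeat close to the start of transcription. RefSeq promoter windows of build GRCm38.p6, 250 bases before to 50 after a gene start, were found for 7 of the 9 members. They were searched on both strands for direct repeats of the unit AGGTCA, of the unit AGTTCA, of the unit GGTTCA or of the unit GGGTCA, in any pairing, with spacers of 1, 2 or 5 bases. The 250 bases before each start are printed in the direction of transcription, with the repeat in capitals. The Rarb stretch is chr14:16575477-16575726 (minus strand) and that of Cyp26a1 is chr19:37697558-37697807 (plus strand).
Rarb: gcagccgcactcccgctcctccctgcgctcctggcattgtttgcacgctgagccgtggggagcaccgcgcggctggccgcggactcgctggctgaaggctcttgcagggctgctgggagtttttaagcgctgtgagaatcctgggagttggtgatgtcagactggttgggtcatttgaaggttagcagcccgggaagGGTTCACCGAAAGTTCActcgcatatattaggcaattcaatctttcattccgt
Cyp26a1: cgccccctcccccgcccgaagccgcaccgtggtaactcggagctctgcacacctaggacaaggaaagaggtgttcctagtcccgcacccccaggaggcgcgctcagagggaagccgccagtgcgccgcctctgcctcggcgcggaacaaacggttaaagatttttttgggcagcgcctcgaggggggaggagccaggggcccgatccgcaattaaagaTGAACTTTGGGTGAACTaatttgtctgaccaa

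The Rarb repeat lay 53 to 37 bases before the start and read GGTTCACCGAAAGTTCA in the direction of transcription. The Cyp26a1 repeat lay 32 to 16 bases before the start and read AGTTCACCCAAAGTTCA on the opposite strand. Both had the 5-base spacer, and 15 of their 17 bases were identical. Counted from the first base of the repeat, with the Rarb base first and the Cyp26a1 base last, the differences were G1A and G9C. A repeat with the 5-base spacer was present in 0.0974% of 32851 promoter windows of this length, and any of the 3 spacers in 0.588%. The windows of Aldh1a1, Aldh1a2, Cyp26b1, Cyp26c1 and Crabp1 held no such repeat. A match describes these letters and is not evidence of binding. Of 62 other retinoid pathway genes with a window, only Bco1 held a match, AGGTCAAAGGTCA, with a 1-base spacer. The start of the unmeasured Cyp26c1 lies 12128 bases upstream of that of Cyp26a1, on the same strand of chromosome 19.

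All levels below are log2 of the deposited RMA intensity, in which the middle value of each array was 32 and the lower quartile 12 before the logarithm. A difference is later minus earlier stage on that scale with its standard error (SE) from limma, fitted to all 16 arrays and 18194 genes, and a gene was called where the Benjamini-Hochberg adjusted p was under 0.05. Calls were common in these data. Because the members were chosen with earlier results of these data known, the shares beside their counts are a description and not a test. Between E9.5 and E11.5, 57.8% of all genes were called, and 7 of the 8 measured members were, 4 higher (31.0% of all genes) and 3 lower (26.9%). Between E11.5 and E13.5, 54.9% of all genes and 6 of the 8 members were called, 3 higher (27.9% of all genes) and 3 lower (27.0%). From E9.5 to E13.5 it was 61.8% and all 8, 4 higher (32.7%) and 4 lower (29.1%). The comparisons share arrays and are not independent of each other. A called rise in both intervals was found for Aldh1a2 and Cyp26b1, against 7.74% of all genes. Called differences of at least 2-fold were found for 5 members at E11.5 versus E9.5, against 10.9% of all genes. For E13.5 versus E11.5 this was 1 member against 9.59%, and for E13.5 versus E9.5 it was 4 members against 17.0%. By the moderated F test over the 3 stages all 8 differed (adjusted p at most 0.00136), as did 75.8% of all genes.

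**Figure D1:**
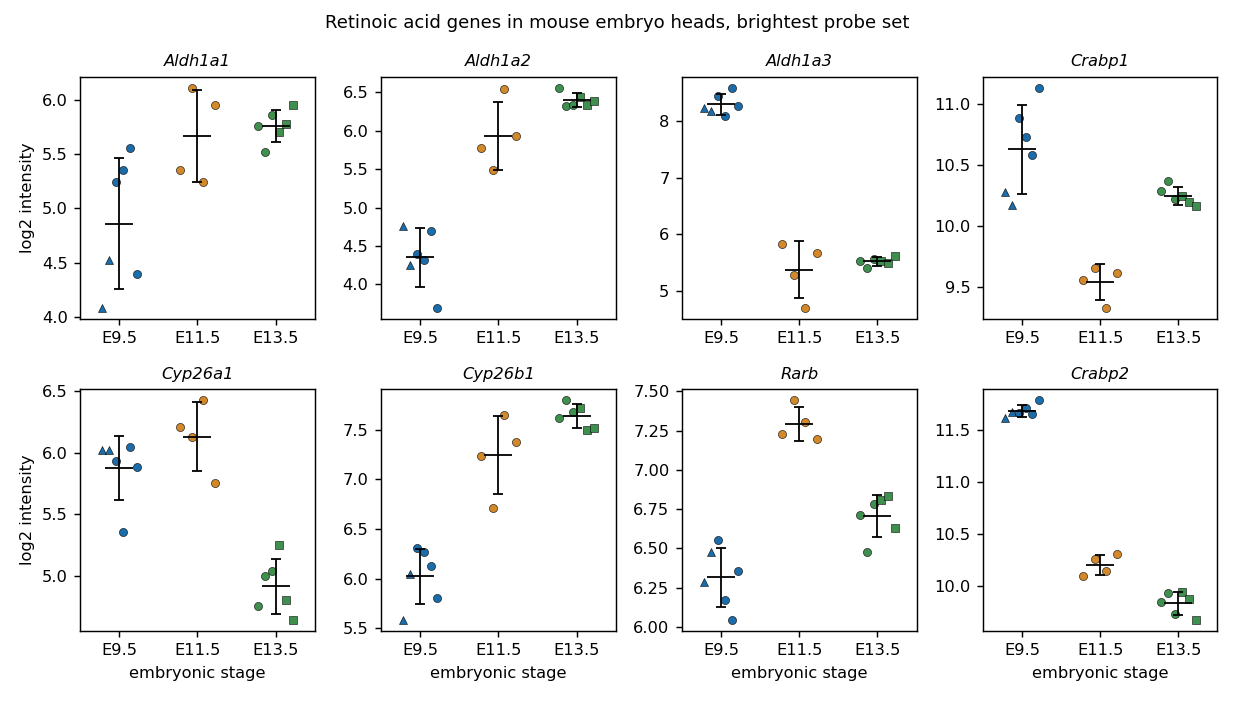
Log2 intensity (y axis) of the 8 measured genes by embryonic stage (x axis), 1 point per array, with the stage mean and SD in black. Triangles are the E9.5 samples 13 and 15, squares the E13.5 samples with the title prefix B63; the y axes differ between panels and do not start at 0. Aldh1a3 and Crabp2 are highest at E9.5, Rarb at E11.5, and Aldh1a2 and Cyp26b1 at E13.5.

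Among the synthesis enzymes, Aldh1a3 was high at E9.5 and fell, Aldh1a2 rose at both later stages, and Aldh1a1 rose to E11.5. Aldh1a3 encodes the dehydrogenase best known from the eye, the olfactory region and the surface of the face. At E9.5 its lowest, median and highest arrays were at 8.09, 8.25 and 8.59. At E11.5 the samples 33, 36, 51 and 52 were at 5.83, 5.29, 4.70 and 5.67, and at E13.5 the arrays lay between 5.39 and 5.61 with a median of 5.52. Every E9.5 array was thus above every later array. The mean fell 7.61-fold from 8.30 ± 0.18 (SD, n = 6) at E9.5 to 5.37 ± 0.50 (n = 4) at E11.5, a difference of -2.93 ± 0.15 SE (adjusted p = 5.69e-12). It was 5.52 ± 0.07 (n = 6) at E13.5, a difference of 0.14 ± 0.15 from E11.5 that was not called (adjusted p = 0.451).

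The other Aldh1a3 probe sets showed the same fall to E11.5 at a smaller size, and then a further fall. They lay at 6.87 ± 0.25 and 7.05 ± 0.38 at E9.5, 5.21 ± 0.15 and 5.42 ± 0.31 at E11.5, and 4.49 ± 0.10 and 4.57 ± 0.19 at E13.5. In a limma fit over all 45037 probe sets that are not controls, both fell from E9.5 to E11.5, with differences of -1.66 and -1.63 (adjusted p = 2.66e-10 and 1.03e-07). They fell again to E13.5, by 0.72 and 0.84 (adjusted p = 1.89e-05 and 3.15e-04), where the brightest was not called. The size of the first fall and the existence of the second therefore differed between probe sets of this gene. Without E11.5 sample 51, the lowest of its stage, the brightest probe set differed by -0.08 between E11.5 and E13.5. In this fit, 9 of the 10 member probe sets were called at E11.5 versus E9.5 (52.4% of all probe sets), 8 at E13.5 versus E11.5 (51.5%) and 10 at E13.5 versus E9.5 (57.6%).

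**Figure D2:**
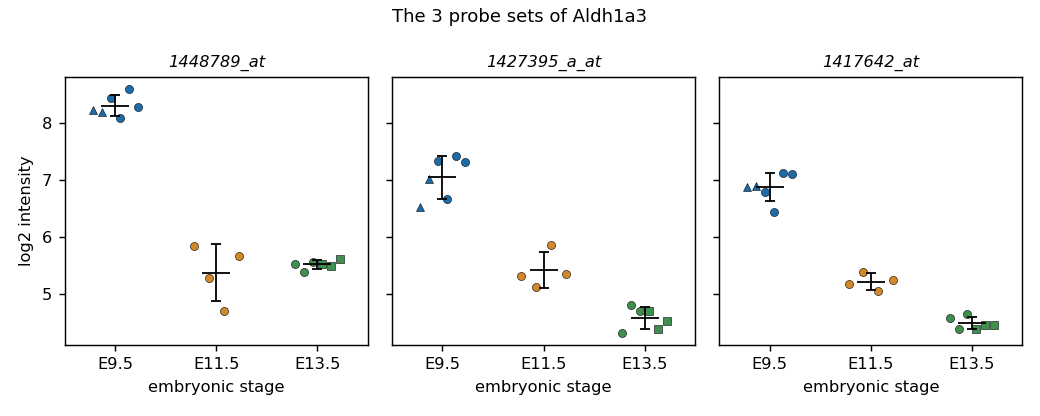
Log2 intensity (y axis, shared) of the 3 probe sets of Aldh1a3 by embryonic stage (x axis), ordered by brightness, 1 point per array with the stage mean and SD. All 3 fall between E9.5 and E11.5; the right pair, but not the brightest, is lower again at E13.5.

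Aldh1a2, whose enzyme supplies most retinoic acid of the early embryo and, in the later head, of the meninges, rose over the same time. The lowest, median and highest E9.5 arrays were at 3.70, 4.36 and 4.75. The E11.5 samples 33, 36, 51 and 52 followed at 5.78, 5.49, 6.54 and 5.93, and E13.5 ran from 6.32 to 6.55 with a median of 6.37. No E9.5 array reached any later one, whereas E11.5 sample 51 lay among the E13.5 arrays. The rise from 4.35 ± 0.38 (n = 6) to 5.94 ± 0.44 (n = 4) was 3.00-fold (difference 1.58 ± 0.18 SE, adjusted p = 2.37e-07), and that from E9.5 to E13.5, at 6.40 ± 0.09 (n = 6), was 4.13-fold (2.05 ± 0.16 SE, adjusted p = 4.78e-10). The E9.5 intensities were low, 13 to 27 before the logarithm, where the middle value of each array was 32. With an offset of 16 added before the logarithm, the difference was 1.08 for E11.5 versus E9.5 and 1.45 for E13.5 versus E9.5. The step from E11.5 to E13.5 was 0.46 ± 0.18 SE (adjusted p = 0.0343). That last call was lost when E11.5 sample 36, 33 or 52 or E13.5 sample B62E6K or B63E5K was left out (adjusted p up to 0.160), and with quantile normalization (0.0919), median centring (0.0701) or the E13.5 title prefix as a random block (0.101).

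Aldh1a1, known from the dorsal retina and from dopaminergic neurons of the midbrain, was dim and varied most at E9.5. Its E9.5 arrays ran from 4.09 through a median of 4.89 to 5.55, the E11.5 samples 33, 36, 51 and 52 were at 5.36, 6.11, 5.25 and 5.95, and the E13.5 arrays lay between 5.52 and 5.95 with a median of 5.77. The ranges of E9.5 and E11.5 overlapped, and E13.5 lay within that of E11.5. The mean rose 1.75-fold from 4.86 ± 0.60 (n = 6) to 5.67 ± 0.43 (n = 4; difference 0.81 ± 0.24 SE, adjusted p = 0.00623). It was 5.76 ± 0.15 (n = 6) at E13.5, 0.90 ± 0.21 SE above E9.5 (adjusted p = 9.06e-04) and 0.10 ± 0.24 SE from E11.5 (adjusted p = 0.757). The E9.5 samples 13, 24 and 15 were at 4.09, 4.39 and 4.52. Without samples 13 and 15 the first rise was 0.53 (adjusted p = 0.0428). The closely related Aldh1a7 fell over that interval (-1.15 ± 0.12 SE, adjusted p = 6.22e-08).

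Among the breakdown enzymes, Cyp26b1 rose from E9.5 to E11.5, where Cyp26a1 was not called. Cyp26a1 was lower at E13.5, in comparisons that also change the labelling kit. Cyp26b1 encodes the family member best known from the hindbrain and from cartilage and limb. It ran from 5.58 through a median of 6.09 to 6.30 at E9.5. The E11.5 samples 33, 36, 51 and 52 were at 7.24, 6.71, 7.64 and 7.38, and E13.5 ran from 7.50 through 7.65 to 7.79. Both later stages stood clear of E9.5, and E11.5 sample 51 reached into the E13.5 range. From 6.02 ± 0.28 (n = 6) it rose 2.33-fold to 7.24 ± 0.39 (n = 4; difference 1.22 ± 0.15 SE, adjusted p = 8.00e-07) and 3.06-fold to 7.64 ± 0.12 at E13.5 (n = 6; 1.61 ± 0.14 SE, adjusted p = 1.40e-09). The later step was 0.39 ± 0.15 SE (adjusted p = 0.0329). It was not called without E11.5 sample 33 or 36 or E13.5 sample B62E7K, B62E8K or B63E5K (adjusted p up to 0.194, and a difference of 0.22 without sample 36), nor with quantile normalization (0.0572), median centring (0.0748) or the title prefix block (0.103).

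Cyp26a1, the member induced most directly by retinoic acid itself, was not called between E9.5 and E11.5 and then fell. Its E9.5 arrays were at 5.36, 5.98 and 6.04 (lowest, median, highest), and the lowest, sample 19, stood apart from the other 5, which were at 5.88 or above. The E11.5 samples 33, 36, 51 and 52 were at 6.21, 6.13, 6.43 and 5.75, and E13.5 ran from 4.64 through 4.90 to 5.25. All E13.5 arrays were below all earlier arrays. The difference from 5.88 ± 0.26 (n = 6) at E9.5 to 6.13 ± 0.28 (n = 4) at E11.5 was 0.25 ± 0.14 SE and not called (adjusted p = 0.142); it was called without E11.5 sample 52 (0.38, adjusted p = 0.0350). From E11.5 to 4.92 ± 0.22 (n = 6) at E13.5 it fell 2.32-fold (-1.21 ± 0.14 SE, adjusted p = 5.19e-07), and from E9.5 to E13.5 it fell 1.95-fold (-0.96 ± 0.13 SE, adjusted p = 1.54e-06).

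Rarb, the receptor gene with the repeat shown above, peaked at E11.5. Its E9.5 arrays ran from 6.04 through 6.32 to 6.55. The E11.5 samples 33, 36, 51 and 52 were at 7.23, 7.44, 7.30 and 7.20, and E13.5 ran from 6.48 through 6.75 to 6.83. The E11.5 arrays stood above all others, and E9.5 and E13.5 overlapped in a narrow range. From 6.31 ± 0.19 (n = 6) the gene rose 1.97-fold to 7.29 ± 0.11 (n = 4; difference 0.98 ± 0.10 SE, adjusted p = 5.95e-08) and then fell 1.5-fold to 6.71 ± 0.13 (n = 6; -0.59 ± 0.10 SE, adjusted p = 4.65e-05). It remained 0.39 ± 0.09 SE above E9.5 at E13.5 (adjusted p = 7.20e-04), or 0.26 with quantile normalization and 0.25 with median centring, both still called. A called rise followed by a called fall was seen for 13.4% of all genes. Both genes with the 5-base spacer repeat were lower at E13.5 than at E11.5, in the comparison that also changes the kit. A called fall there was also seen for Crabp2, which had no window to search, and for 27.0% of all genes. Over the earlier interval Rarb rose while Cyp26a1 was not called. Any part of the repeat in these changes was not tested.

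The binding protein genes were both highest at E9.5 and then parted. Crabp2 ran from 11.62 through 11.67 to 11.79 at E9.5, its E11.5 samples 33, 36, 51 and 52 were at 10.09, 10.25, 10.14 and 10.30, and E13.5 ran from 9.67 through 9.86 to 9.93. The stages did not overlap at all. It fell 2.81-fold from 11.69 ± 0.06 (n = 6) to 10.20 ± 0.10 (n = 4; -1.49 ± 0.08 SE, adjusted p = 3.60e-12) and a further 1.29-fold to 9.83 ± 0.11 (n = 6; -0.37 ± 0.08 SE, adjusted p = 3.35e-04). A called fall in both intervals was found for 5.69% of all genes, and of the 8 members only for Crabp2 by the brightest probe sets.

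Crabp1, whose protein is abundant in hindbrain, neural crest and early neurons, fell and rose again. The E9.5 arrays were at 10.17, 10.66 and 11.13 (lowest, median, highest), the E11.5 samples 33, 36, 51 and 52 at 9.56, 9.66, 9.33 and 9.61, and the E13.5 arrays ran from 10.16 through 10.23 to 10.37. Every E11.5 array was below every other array, while E13.5 overlapped the lower part of E9.5. From 10.63 ± 0.36 (n = 6) it fell 2.13-fold to 9.54 ± 0.15 (n = 4; -1.09 ± 0.14 SE, adjusted p = 1.25e-06) and rose 1.63-fold to 10.25 ± 0.07 (n = 6; 0.71 ± 0.14 SE, adjusted p = 2.27e-04). A called fall followed by a called rise was seen for 11.0% of all genes. The difference between E13.5 and E9.5 was -0.38 ± 0.13 SE (adjusted p = 0.0117). It was not called with the title prefix as a random block (adjusted p = 0.0540) and was -0.59 without the E9.5 samples 13 and 15, the lowest of their stage at 10.28 and 10.17.

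**Figure D3:**
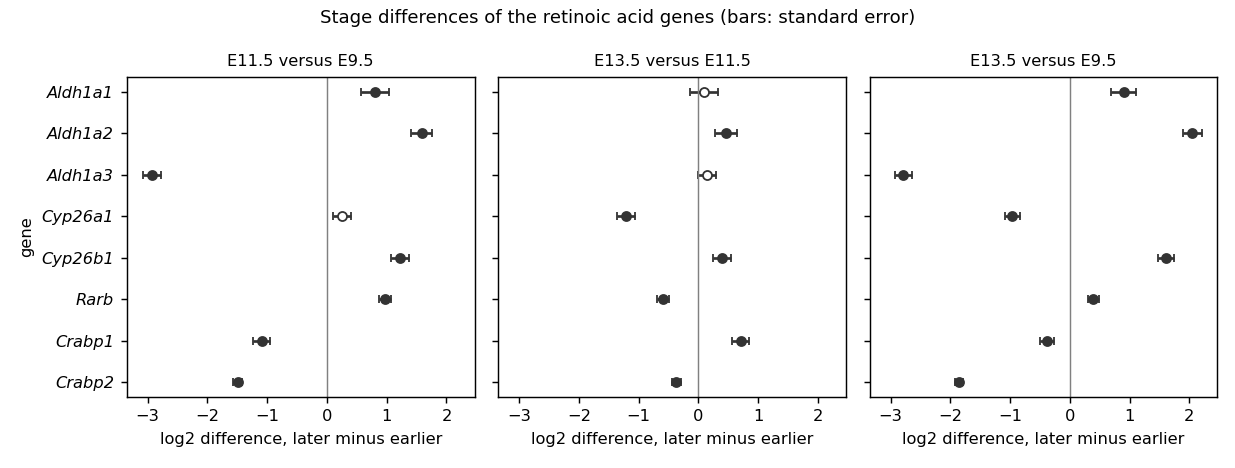
Log2 difference, later minus earlier stage (x axis), of the 8 genes (y axis) in the 3 comparisons, with the SE of the limma fit as bars; filled points were called at an adjusted p under 0.05 and open points were not. Aldh1a3 lies farthest below 0, at -2.93 for E11.5 versus E9.5, and Aldh1a2 farthest above it, at 2.05 for E13.5 versus E9.5.

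The groups of arrays did not overlap for 6 of the 8 members at E11.5 versus E9.5 (37.7% of all genes), for 4 at E13.5 versus E11.5 (43.0%) and for 5 at E13.5 versus E9.5 (44.8%). Within E13.5 the arrays with the title prefixes B62 and B63 overlapped for all 8 members. Over all genes the correlation within a block, estimated for the random block fit, was 0.60. Each E9.5 and E11.5 array was its own block there, so this value also depends on how the spread differs between stages. The genes whose arrays followed each member most closely were taken by Pearson correlation of log2 values over the 16 arrays, among 4112 named genes whose stage means spanned at least 1 log2 unit. These correlations mostly follow the stage means and are given as a description. Crabp2 was closest to Phf5a (r = 0.994), Lin28a (0.993) and Chaf1b (0.993), Aldh1a3 to Slc2a3, Dnajc2 and Nolc1 (0.989 to 0.990), and Cyp26b1 to Fstl5 (0.989), Vps13c and Vps37d (0.983 and 0.979). Aldh1a2 was closest to Gabrb2, Zfp618 and Rab11fip5 (0.982 to 0.983), Crabp1 to Denr (0.964), Pa2g4 and Lsm2 (0.952 and 0.948), and Rarb to Smim10l1 (0.949), Scrt2 and Osbp (0.942 and 0.937). The values were lower for Cyp26a1, with Fzd8 (0.936), Bzw1 and Rpa3 (0.925 and 0.923), and for Aldh1a1, with Cyfip2 (0.903), Crym and Mab21l1 (0.897 and 0.890).

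The rest of the pathway was read from 86 other genes in 6 lists, of which 75 were measured. At E11.5 versus E9.5, 19 of the 75 were higher (31.0% of all genes), 22 lower (26.9%) and 34 not called. The median difference was -0.05 against 0.02 over all genes. At E13.5 versus E11.5, 22 were higher (27.9% of all genes), 17 lower (27.0%) and 36 not called (median -0.02). At E13.5 versus E9.5, 23 were higher (32.7% of all genes), 22 lower (29.1%) and 30 not called (median -0.06 against 0.01 over all genes). The same shares of all genes are to be set beside the counts of single lists and of markers below.

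Upstream of the Aldh1a enzymes, retinol is oxidised to retinal by Rdh10 and reduced back by Dhrs3. Dhrs3 rose at every step: E9.5 ran from 4.81 through 5.13 to 5.49, the E11.5 samples 33, 36, 51 and 52 were at 5.86, 6.00, 6.00 and 5.73, and E13.5 ran from 6.55 through 6.72 to 6.78. The stages did not overlap, and the differences were 0.75 ± 0.11 SE (adjusted p = 3.63e-06) and 0.79 ± 0.11 SE (adjusted p = 2.21e-06). Rdh10, named here after its values were seen, rose by 0.59 ± 0.11 SE to E11.5 on its brightest probe set (adjusted p = 1.19e-04), while its other probe set fell by 0.73 (adjusted p = 6.60e-05), so its direction is not settled. Of the 19 measured genes of retinol and retinal conversion, 6 rose and 7 fell to E11.5, and 7 rose and 2 fell to E13.5. The falls to E11.5 were led by the retinal reductase gene Rdh11 (-1.49 ± 0.14 SE, adjusted p = 2.22e-08) and Adh5 (-1.07 ± 0.08 SE, adjusted p = 3.64e-10). The other probe set of each was not called there (-0.14 for Rdh11). From E11.5 to E13.5 the brightest probe set of Rdh11 rose (0.49, adjusted p = 0.00609), while its other probe set fell (-0.71, adjusted p = 2.69e-05).

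Genes of retinol uptake and storage were mostly not called, 8 of 11 in either interval, against 7674 and then 8213 of all 18194 genes. Among these 8, Rbp7, Stra6l and Lrat were under the lower quartile of the arrays at every stage. The exception in size was Ttr, the carrier of thyroid hormone and of retinol-binding protein, which rose by 4.22 ± 0.23 SE to E11.5 and 2.40 ± 0.23 SE to E13.5 (adjusted p = 9.18e-12 and 2.65e-08), and all 3 of its other probe sets rose too. Ttr is also a marker of the choroid plexus. Of the 6 other choroid plexus markers measured, 2 rose and 3 fell to E11.5, and 4 rose and 1 fell to E13.5. Those that fell to E11.5, where Ttr rose, were Clic6, Folr1 and Otx2. The mean of Aqp1 went up at both steps, at 3.58 ± 0.15, 4.00 ± 0.12 and 6.58 ± 0.10 in stage order. So did that of Kcne2, at 3.02 ± 0.17, 3.41 ± 0.28 and 4.72 ± 0.27. Both were under the lower quartile of the arrays at E9.5. Clic6 was at 6.81 ± 0.11 at E13.5, above its E9.5 mean of 6.31 ± 0.32, whereas Otx2 was lower again at 8.42 ± 0.10. The part of these markers in the rise of Ttr was not tested. Stra6, the receptor for retinol-binding protein, also named after its values were seen, was at 6.17 ± 0.17, 5.89 ± 0.29 and 5.49 ± 0.16 in stage order and fell by 0.68 from E9.5 to E13.5 (adjusted p = 1.44e-05). Cyp2s1, a P450 enzyme reported to oxidise retinoic acid, rose from 3.92 ± 0.36 to 4.85 ± 0.27 at E11.5 (0.93 ± 0.15 SE, adjusted p = 3.12e-05). It was dim, with E9.5 intensities of 10 to 20 before the logarithm, near the lower quartile of the arrays.

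Of the other receptor genes, Rxrb also rose and then fell, and the rest took other courses. Rarg rose by 0.87 ± 0.09 SE to E11.5 (adjusted p = 1.04e-07) and 0.27 ± 0.09 SE to E13.5 (adjusted p = 0.0202). Its other probe set rose by 1.16 and then fell by 1.94 (adjusted p = 1.41e-09), so the later direction depends on the probe set. Rara was not called to E11.5 (0.20 ± 0.19 SE) and fell by 0.80 to E13.5 (adjusted p = 0.00132). Of the RXR partners, Rxrg fell by 0.56 and then rose by 0.86 (adjusted p = 6.78e-04 and 6.54e-06), Rxrb rose by 0.33 and then fell by 0.26 (adjusted p = 5.67e-04 and 0.00452), and Rxra was not called in any comparison on its brightest probe set, although both of its others rose to E11.5. Rxrg was dim at E11.5, with intensities of 21 to 26 before the logarithm, under the middle value of the arrays.

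**Figure D4:**
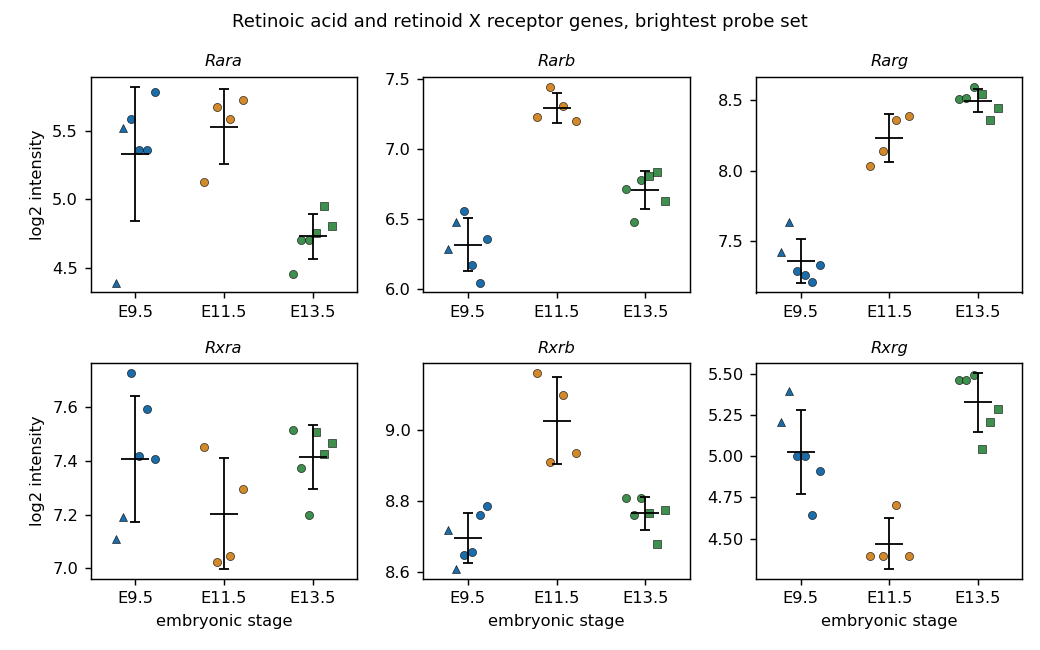
Log2 intensity (y axis) of 6 retinoic acid and retinoid X receptor genes by embryonic stage (x axis), brightest probe set, 1 point per array with the stage mean and SD; y axes differ between panels and do not start at 0. Rarb and Rxrb are highest at E11.5, Rarg rises at each stage, and Rxrg is lowest at E11.5.

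Among 10 measured cofactor genes, 5 rose and 3 fell to E11.5, and 1 rose and 5 fell to E13.5. The coactivator gene Ncoa1 rose in both intervals (1.26 ± 0.10 SE and 1.31 ± 0.10 SE, adjusted p = 1.11e-09 and 6.98e-10), and 1 of its 2 other probe sets rose with it. Ep300, a histone acetyltransferase, rose by 0.45 to E11.5 (adjusted p = 0.00138) and then fell by 0.86 to E13.5 (adjusted p = 1.10e-06). Tgif1, a repressor of retinoid-driven transcription, fell by 0.43 and then by 0.91 (adjusted p = 0.00253 and 8.74e-07). Nrip1, a corepressor induced by retinoic acid, fell by 0.94 from E9.5 to E13.5 (adjusted p = 9.70e-07), with 4 of its 5 other probe sets falling. Of 25 measured genes reported to respond to retinoic acid, 4 rose and 8 fell to E11.5, and 8 rose and 6 fell to E13.5. Fgf8, which retinoic acid represses in the early embryo, fell in both intervals (-1.10 ± 0.18 SE and -0.81 ± 0.18 SE, adjusted p = 2.17e-05 and 6.19e-04). Its levels were low, at 5.12 ± 0.38, 4.02 ± 0.32 and 3.21 ± 0.24 in stage order, the last under the lower quartile of the arrays. Hoxb5 was at 3.79 ± 0.12 and 3.57 ± 0.22 at E9.5 and E11.5, near the lower quartile of the arrays, and rose by 2.68 ± 0.14 SE to E13.5 (adjusted p = 2.39e-12). Gbx2, a factor of the anterior hindbrain, fell by 0.81 to E11.5 (adjusted p = 4.76e-04) and then rose by 1.58 ± 0.17 SE (adjusted p = 1.71e-07). Its E11.5 intensities were low, 12 to 28 before the logarithm.

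Markers of the cell types in the heads moved over the same stages, and in bulk RNA fewer cells of a type and less RNA per cell cannot be told apart. All 10 neuronal markers rose to E11.5, among them Tubb3 at 7.76 ± 0.56, 9.04 ± 0.05 and 10.57 ± 0.11 in stage order. Their mean was 6.51 to 7.89 over the E9.5 arrays, 9.72 to 9.92 at E11.5 and 10.56 to 10.66 at E13.5, with the E9.5 samples 13 and 15 at 6.51 and 6.66. The list mean of the neural progenitor markers was highest at E11.5, but single markers took different courses. Of the 10 markers, 7 rose and 2 fell to E11.5, and 2 rose and 7 fell to E13.5. Their mean was 9.17 to 9.62, then 10.14 to 10.28, then 9.48 to 9.61. Nes was at 8.21 ± 0.15, 9.87 ± 0.06 and 9.09 ± 0.07, whereas Sox2 was not called to E11.5 and then fell (11.03 ± 0.09, 10.95 ± 0.17 and 9.91 ± 0.14).

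Markers of meninges and pericytes, a tissue that makes retinoic acid through Aldh1a2, rose for 10 of 12 genes to E11.5, and 7 rose and 3 fell to E13.5. The list mean went from 6.74 to 6.95 over the E9.5 arrays to 7.78 to 7.92 and then 8.50 to 8.61, and Cldn11 and Rgs5 were under the lower quartile at E9.5. Beside the fall of Aldh1a3 to E11.5, 4 of 11 surface and olfactory ectoderm markers fell, 1 rose and 6 were not called, and 9 rose and 0 fell to E13.5 (list mean 5.95 to 6.42, then 5.82 to 5.91, then 7.0 to 7.09). The markers of this list took different courses: Krt18 was at 8.34 ± 0.32, 5.88 ± 0.17 and 6.71 ± 0.10, Ebf2 rose from 6.86 ± 0.11 to 8.46 ± 0.15 and 8.70 ± 0.07, and Krt14 was at 4.39 ± 0.14 at both earlier stages and 7.83 ± 0.13 at E13.5.

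Markers of retina and pigment epithelium also differed among themselves, with 5 of 11 rising and 4 falling to E11.5 and 3 rising and 1 falling to E13.5 (list mean 5.29 to 5.4, 5.25 to 5.39 and 5.47 to 5.59). The eye field factor Rax was at 5.58 ± 0.32, 4.46 ± 0.11 and 4.39 ± 0.19, while the pigment cell gene Dct rose from 4.30 ± 0.26 to 5.84 ± 0.25 and 6.91 ± 0.20. Of 10 dopaminergic markers, 4 rose and 4 fell to E11.5 beside the rise of Aldh1a1 (list mean 5.31 to 5.41 at E9.5 and 5.24 to 5.38 at E11.5). Facial mesenchyme and cartilage markers, beside Cyp26b1, rose for 6 of 12 and fell for 0 to E11.5, and 6 rose and 4 fell to E13.5. Macrophage markers rose for 7 of 8 to E11.5 and for 6 of 8 to E13.5. The spike-in control probe sets also moved, at 7.55 ± 0.22, 5.38 ± 0.13 and 5.12 ± 0.10 in stage order. The larger step lay between E9.5 and E11.5, which share a labelling kit. Their arrays did not overlap, at 7.34 to 7.90 for E9.5 and 5.21 to 5.50 for E11.5. The part of these markers and controls in the results for the members was not tested.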

How the data were processed

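The authors deposited linear intensity values, 1 whole number per probe set and array. Per the submitters' processing notes they come from RMA, which corrects background, normalizes arrays to one another and summarises probes; no version or setting of it is stated. Quartiles were equal across arrays, so values show changes relative to other transcripts. No depth exists for arrays; their number limits the precision. Log2 was taken, 64 control probe sets were left out, and 34945 probe sets naming exactly 1 gene in the platform annotation gave 18194 genes. No sample column was left unused.

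A limma model (version 3.58.1, R version 4.3.3) with 1 mean per stage and moderated variances was fitted to all 16 arrays, with Benjamini-Hochberg adjustment over all genes within a comparison, and again over all 45037 probe sets. The code was tested on simulated data. p-values treat the arrays of a stage as independent.

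All 9 members are named. From the pathway lists the text names the genes with the largest called rises and falls, up to 4 each per comparison, and the receptors; not all so taken are described, and genes outside the rule are marked. The members and lists were chosen with earlier results of these data known. Alternatives covered normalization, centring, an offset of 16, probe set choice, a filter on the dimmest 25% of genes, variance, array weights, the title prefix and left-out arrays.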

Additional observations from a re-analysis of the deposited data

Results flagged for a closer look

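Cyp26a1 at E9.5 sample 19 had a log2 intensity of 5.36, below the other 5 arrays of its stage, which lay between 5.88 and 6.04. The gap to the nearest array was 0.765 of the stage's range, above Dixon's critical value of 0.625 for 6 samples. It was the only such array in 24 combinations of gene and stage examined, where chance gives about 1 in 20. Without it, the difference of Cyp26a1 between E9.5 and E11.5 was 0.15 and was not called.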

How the results depend on the processing

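The counts of called members, of called member probe sets and of called pathway genes stayed within 1.5 times of the reported ones under every alternative run. For the members' own differences, none reversed at E11.5 versus E9.5 or E13.5 versus E9.5. At E13.5 versus E11.5, Aldh1a3, which was not called, reversed to -0.47 with the mean of its probe sets and to -0.84 with the second-brightest, both called, and lay between -0.0801 and 0.30 over the left-out arrays. Aldh1a1, also not called there, lay between -0.0447 and 0.24 over them. The call at E13.5 versus E11.5 was lost in 8 alternatives each for Aldh1a2 and Cyp26b1, as given above. With the second-brightest probe set the fall of Aldh1a3 to E11.5 was -1.63, not -2.93. Median centring moved the median of all genes to -0.14 at E13.5 versus E9.5; no member changed direction there. No paired analysis was possible because the stages share no replicate numbers.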

Other observations

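At E11.5, sample 51 was highest of its stage for Aldh1a2, Cyp26a1 and Cyp26b1 and lowest for Aldh1a1, Aldh1a3 and Crabp1, and sample 36 was highest for Aldh1a1, Rarb and Crabp1 and lowest for Aldh1a2 and Cyp26b1. Aldh1a2 stood at 6.54 in sample 51 and 5.49 in sample 36, and Aldh1a1 at 5.25 and 6.11. The SD of Aldh1a2 was 0.44 at E11.5 and 0.09 at E13.5, and that of Aldh1a3 was 0.50 and 0.07. It was also larger at E11.5 for Aldh1a1, Cyp26a1, Cyp26b1 and Crabp1, but smaller there for Rarb (0.11 and 0.13) and Crabp2 (0.10 and 0.11).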
